A study of Mus musculus with 3 samples.

Results

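The genes described here are the interleukin receptors outside the IL-1 receptor symbols. They are the Gene Expression features whose symbol begins with Il, a number and r, with every symbol beginning Il1r left out. The rule takes 35 features, with 33 different symbols, of 32285 in the count matrices. Il18r1 and Il18rap are kept by this rule, although the receptor chains they encode belong structurally to the IL-1 receptor family. The measurements are single-cell RNA counts from left lungs of mice given as C57BL/6J in 3 libraries. The naive library came from lungs that had not been operated on. The other libraries came from syngeneic B6>B6 orthotopic left lung transplants, CD45.2 donor into CD45.1 recipient, in which the graft was kept for 60 min at 4 °C and 45 min at 28 °C and then reperfused for 2 hours or for 3 days. Each library pooled the cells of 2 mice and was described as sorted for CD45.1+ cells, which in a graft are the recipient's. The study lists its B6 CD45.1 mice as the congenic strain B6.SJL-Ptprca Pepcb/BoyJ. Whether the naive mice carried CD45.1 is not stated. There was 1 library per condition, so a library cannot be told apart from its condition and no p-value is given anywhere.

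Interleukin receptors are assembled from chains. A private chain binds the cytokine and is paired with a chain that several cytokines share, such as the common gamma chain Il2rg for IL-2, IL-4, IL-7, IL-9, IL-15 and IL-21, or Il10rb for IL-10 and IL-22. Most of these chains signal through Janus kinases and STAT transcription factors, whereas the IL-17 receptors signal through the adaptor Act1, so which chains a leukocyte transcribes sets which cytokines it can sense. In the lung, IL-7 receptor marks T cells and innate lymphoid cells, IL-2 receptor beta marks NK cells, and the IL-4 and IL-17 receptors are found on many leukocytes.

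The promoters of 4 members are shown because 2 of these genes, Il7r and Il4ra, carried differences between 2 hours and 3 days described below, and the other 2, Il12rb2 and Il18r1, were highest in NK-like cells among the 5 lineages compared, in every library. Each is the stretch from 250 bases before to 50 bases after a start given by RefSeq, in build GRCm38.p6, read 5′ to 3′ on the gene's strand. That start can differ from the end of the gene positions printed below, which come from a different annotation. Where a gene had several such stretches, the stretch with the most matches to the 3 motifs named below is shown. Capitals mark matches to TTCNNNGAA, the palindrome bound by STAT factors, which reads the same on both strands.
Il7r, chr15:9529827-9530126, minus strand: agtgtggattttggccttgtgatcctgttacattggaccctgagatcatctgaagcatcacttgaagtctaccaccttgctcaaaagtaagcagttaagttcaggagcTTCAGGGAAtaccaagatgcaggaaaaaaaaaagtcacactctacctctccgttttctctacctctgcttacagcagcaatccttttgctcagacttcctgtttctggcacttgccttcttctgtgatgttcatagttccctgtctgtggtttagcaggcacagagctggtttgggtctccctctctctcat
Il4ra, chr7:125552021-125552320, plus strand: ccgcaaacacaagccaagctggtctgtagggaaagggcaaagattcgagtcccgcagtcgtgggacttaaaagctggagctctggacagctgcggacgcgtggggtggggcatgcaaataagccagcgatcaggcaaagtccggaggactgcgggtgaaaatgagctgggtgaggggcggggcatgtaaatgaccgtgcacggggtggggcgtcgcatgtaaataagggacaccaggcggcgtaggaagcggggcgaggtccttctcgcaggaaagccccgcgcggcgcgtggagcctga
Il12rb2, chr6:67376139-67376438, minus strand: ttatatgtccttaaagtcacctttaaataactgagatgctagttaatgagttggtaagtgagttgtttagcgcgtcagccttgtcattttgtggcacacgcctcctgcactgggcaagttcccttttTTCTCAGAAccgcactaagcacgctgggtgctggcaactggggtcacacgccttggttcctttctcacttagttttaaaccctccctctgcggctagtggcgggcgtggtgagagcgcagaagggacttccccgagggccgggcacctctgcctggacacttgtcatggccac
Il18r1, chr1:40465756-40466055, plus strand: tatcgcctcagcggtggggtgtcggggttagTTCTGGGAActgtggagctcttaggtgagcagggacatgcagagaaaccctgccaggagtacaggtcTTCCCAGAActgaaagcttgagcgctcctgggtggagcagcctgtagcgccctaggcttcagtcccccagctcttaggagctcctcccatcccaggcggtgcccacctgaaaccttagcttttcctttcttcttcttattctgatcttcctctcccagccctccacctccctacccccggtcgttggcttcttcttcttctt
Of the 33 symbols, 26 had a promoter in the RefSeq table. The STAT palindrome was present in 4 of these 26 members (Il12rb2, Il18r1, Il31ra and Il7r), against 9.55% of 27025 genes with a promoter. The AP-1 letters TGANTCA, searched on both strands, were present in 6 of 26 (Il13ra2, Il15ra, Il17rb, Il20ra, Il22ra1 and Il5ra) against 8.97% of genes. The T-box letters AGGTGTGA, also searched on both strands, were present in 0 of 26 against 1.48% of genes. The Il4ra promoter printed above held none of the 3 motifs in this window. A match is a description of the sequence only.

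The deposited matrices held 2921 naive, 10328 2-hour and 9016 3-day barcodes, of which 2422, 10283 and 8324 passed the cell filter. Sequencing depth differed: the median kept cell had 878 UMIs (unique molecular identifiers, counted RNA molecules) at 2 hours, against 7298 in the naive library and 5716 at 3 days. The naive and 2-hour libraries shared 8 cell barcodes, naive and 3 days shared 1, and 2 hours and 3 days shared 23. By their headers the naive files were written with Cell Ranger 7.1.0 and the transplant files with 6.0.0, and no source used here says if introns were included in the counting. Across all genes in T-like cells, naive over 3 days had a median log2 ratio of -0.54 for genes without an intron and 0.55 for genes with 30 to 100 kb of intron. For this reason the main comparison is between 2 hours and 3 days, and naive values are read beside the intronic length of the gene.

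Clusters were assigned to lineages from fixed marker genes. B-like cells numbered 552, 1420 and 1866 in the naive, 2-hour and 3-day libraries, T-like cells 579, 2505 and 1048, NK-like cells 514, 1020 and 326, neutrophil-like cells 387, 4405 and 2152, and monocyte and macrophage-like cells 252, 745 and 2108. The libraries mostly occupied different clusters of a lineage: cluster 11, 4 and 3 for B-like cells in that order, cluster 10, clusters 1 and 18, and cluster 6 for T-like cells, cluster 12, 7 and 19 for NK-like cells, and cluster 16, clusters 0, 5 and 17, and cluster 2 for neutrophil-like cells. Heat-shock genes led clusters 15 and 18. The monocyte and macrophage-like cells were mainly nonclassical monocyte-like at 2 hours (clusters 13 and 15), nonclassical monocyte-like and alveolar macrophage-like in the naive library (clusters 26 and 27), and at 3 days also classical monocyte-like (cluster 8) and macrophage-like (clusters 9 and 25). Levels are CPM, the UMIs of a gene scaled to 1000000 UMIs of that lineage in that library, with exact Poisson 95% intervals. All intervals cover counting error only.

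Of the 35 features, 30 had at least 1 UMI. The others, 3 features named Il11ra2 and the genes Il13ra2 (the IL-13 decoy receptor) and Il22ra1 (the IL-22 receptor chain of epithelium), had 0 UMIs in every library, which, taking 3 UMIs of the library's total as the limit, allows up to 0.146 CPM over all naive cells, 0.28 at 2 hours and 0.0471 at 3 days. In 27 members at least 20 UMIs were counted over the libraries in a compared lineage. The remaining 3 stayed under 20 UMIs in each lineage: Il17rc had 8, 1 and 31 UMIs over all cells (naive, 2 hours, 3 days), Il17rd had 28, 1 and 34, and Il20ra had 13, 0 and 5. No comparison is made for these 3.

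**Figure D1:**
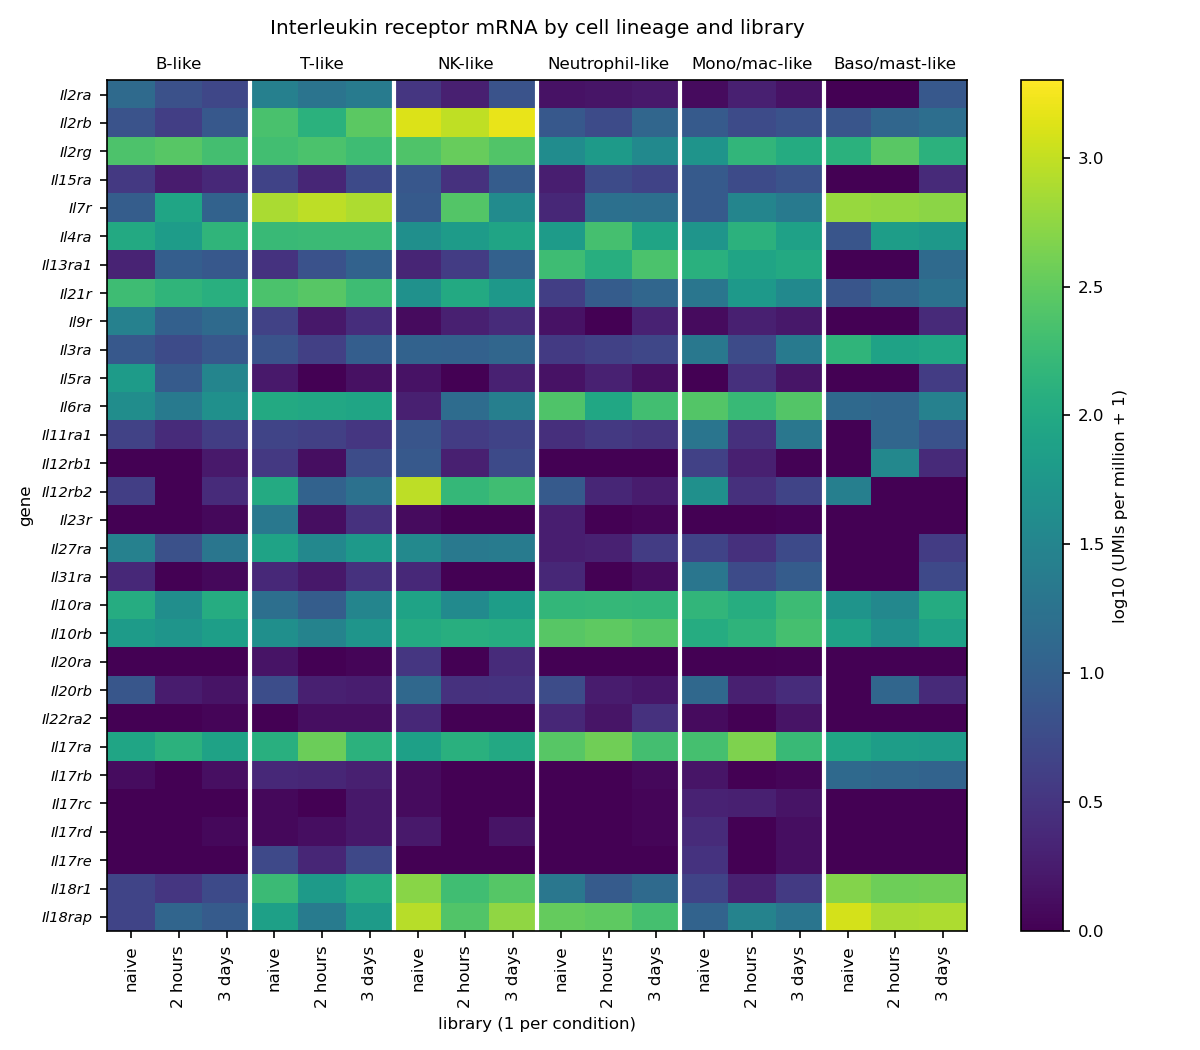
Level of each detected receptor by lineage and library, in CPM on a log colour scale, with members in rows and in columns the 5 lineages and the basophil and mast-like cells, each with its naive, 2-hour and 3-day library. In T-like cells Il7r stood at 765, 927 and 771 CPM, and in NK-like cells Il2rb at 1343, 953 and 1572 CPM.

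The lineage in which a receptor was highest was compared between libraries. A member was counted where each library held at least 20 of its UMIs over the 5 lineages, and 11 of 18 such members had their highest CPM in the same lineage in all 3 libraries. The same was true of 48.3% of all genes counted the same way, and of 5 of 11 members without cells holding 2 or more UMIs of another lineage's markers, so the share is not read as particular to these receptors. In T-like cells these were Il7r (IL-7 receptor alpha), Il2ra (IL-2 receptor alpha), Il21r and Il27ra. In NK-like cells they were Il2rb, Il2rg, Il12rb2, Il18r1, in neutrophil-like cells Il10rb and Il13ra1, and in monocyte and macrophage-like cells Il6ra. The 7 whose highest lineage changed were Il18rap, Il15ra, Il11ra1, Il17ra, Il4ra, Il10ra and Il3ra. Il17ra, the subunit used by IL-17A and IL-17F, was highest in neutrophil-like cells in the naive and 3-day libraries (275 and 204 CPM) and in monocyte and macrophage-like cells at 2 hours (461 CPM). The latter lineage pools subtypes whose mixture differed between libraries. Its nonclassical monocyte-like clusters alone had Il17ra at 284, 457 and 328 CPM (naive, 2 hours, 3 days). This was above the neutrophil-like 275, 381 and 204 CPM in each library. Il4ra, the chain of the IL-4 and IL-13 receptors, was highest in T-like cells in the naive and 3-day libraries (171 and 179 CPM) and in neutrophil-like cells at 2 hours (213 CPM).

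Between 2 hours and 3 days, 5 pairs of a receptor and a lineage were higher at 2 hours and 17 were higher at 3 days, of 90 with at least 20 UMIs over both libraries. A pair is called past 2-fold here where the log2 ratio was at least 1 in size and its 95% interval left out 0. With median-of-ratios size factors in place of CPM the split was 7 and 13. The median log2 ratio of 2 hours to 3 days over all tested genes lay between -0.19 and -0.28 in the 5 lineages, so a shift of that size was shared by genes in general. In B-like cells 1 of 18 members was higher at 2 hours (6.69% of all tested genes) and 5 were higher at 3 days (12.9% of genes). In T-like cells the counts were 1 and 7 of 21 (7.03% and 14.4% of genes). In NK-like cells they were 1 and 1 of 15 (6.27% and 13%). In neutrophil-like cells they were 1 and 2 of 17 (7.96% and 14.9%). In monocyte and macrophage-like cells they were 1 and 2 of 19 (8.83% and 13.7%). The members' shares exceeded the background in the 3-day direction in T-like and B-like cells and lay near or below it elsewhere. That excess rests on 7 and 5 members. Among the T-like ones, Il12rb1 had 1 UMI at 2 hours and Il15ra and Il17re had 4 each. Several of these pairs did not pass 2-fold in every setting, as given below. The median member log2 ratio was -0.51 in B-like, -0.81 in T-like, -0.30 in NK-like, 0.01 in neutrophil-like and -0.59 in monocyte and macrophage-like cells.

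**Figure D2:**
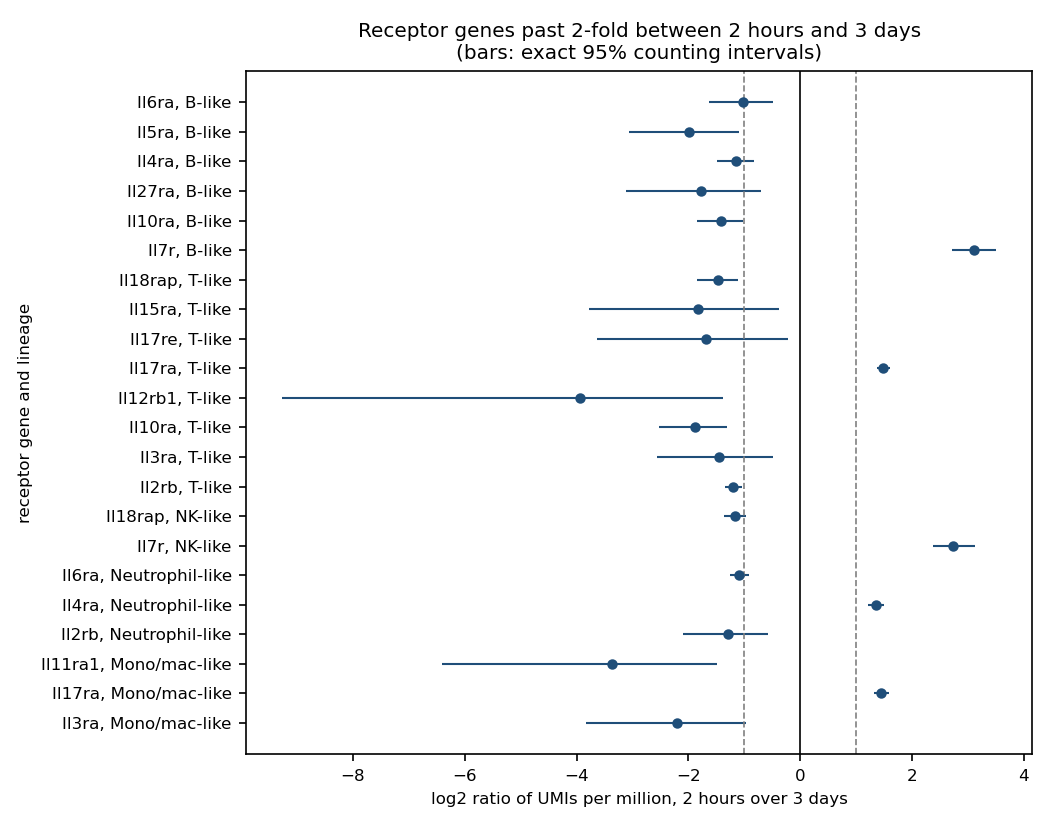
Log2 ratio of CPM at 2 hours to CPM at 3 days for the 22 pairs of a receptor and a lineage past 2-fold, with exact 95% intervals and dashed lines at 2-fold; values right of 0 were higher at 2 hours. Il7r in B-like (3.11) and NK-like cells (2.74), Il17ra in T-like (1.49) and monocyte and macrophage-like cells (1.45) and Il4ra in neutrophil-like cells (1.36) were past 2-fold on that side.

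The largest differences in the 2-hour direction concerned Il7r (ENSMUSG00000003882, chr15:9505788-9530176, minus strand, GRCm38), the receptor for the T cell survival cytokine IL-7. In T-like cells its level was 765 CPM (interval 743 to 788) naive, 927 (894 to 962) at 2 hours and 771 (754 to 789) at 3 days. In NK-like cells it was 7.53, 257 and 38.5 CPM in the same order, from 32, 266 and 76 UMIs. In B-like cells it was 8.32, 85.5 and 9.93 CPM, from 29, 109 and 105 UMIs. Il7r was thus high in T-like cells in every library, and in NK-like and B-like cells it was higher at 2 hours than in either other library. The log2 ratio of Il7r was 2.74 (2.37 to 3.13) in NK-like and 3.11 (2.71 to 3.51) in B-like cells. After each cell was thinned to 500 UMIs, so that depth was equal (41 NK-like, 58 B-like, 340 neutrophil-like, 14 T-like and 8 monocyte and macrophage-like cells of the 2-hour library were shallower and were left out), the share of NK-like cells with an Il7r UMI was 0.195% naive, 7.05% at 2 hours and 2.15% at 3 days, and of B-like cells 0.725%, 3.45% and 0.214%. Before thinning the NK-like shares were 3.50%, 13.1% and 6.44% and the B-like shares 3.62%, 5.70% and 4.07%. In neutrophil-like cells, given for comparison, the thinned shares were 0.258%, 0.443% and 0.418%. The unthinned ones were 0.775%, 0.817% and 3.02% at median depths of 5575, 752 and 4463 UMIs. The level of Il7r in neutrophil-like cells was itself 1.34, 15.5 and 14.9 CPM in the naive, 2-hour and 3-day libraries. The thinned shares of NK-like and B-like cells at 2 hours, and of NK-like cells at 3 days, were above those of neutrophil-like cells. That of B-like cells at 3 days was below the neutrophil-like share. The part of free RNA in these shares was not tested. The thinned naive shares rested on 1 NK-like, 4 B-like and 1 neutrophil-like cell with a UMI and their intervals overlapped, while the unthinned naive shares of NK-like and B-like cells were above that of neutrophil-like cells (median UMIs 7678 and 6180 against 5575).

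Markers of T cells moved with Il7r in these lineages. The sum of 8 T cell markers was 582, 1486 and 702 CPM in NK-like cells (naive, 2 hours, 3 days), 25.8, 102 and 26.4 CPM in B-like cells, and in the T-like cells themselves 3566, 3687 and 3438 CPM; none of the 8 was at 0. Called doublets numbered 5, 88 and 27 of the NK-like and 2, 83 and 36 of the B-like cells. Without called doublets the log2 ratio of Il7r was 2.45 in NK-like and 2.70 in B-like cells, and without cells holding any UMI of the T cell receptor complex genes Cd3d, Cd3e or Cd3g it was 2.67 (1.98 to 3.39) and 3.20. Where each cell was instead called from its own marker UMIs the ratio in NK-like cells was 1.22 and in B-like cells 2.56, and in B-like cells without any cell holding 2 or more UMIs of another lineage's markers it was 1.90 with an interval of -0.02 to 4.99, which no longer left out 0.

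**Figure D3:**
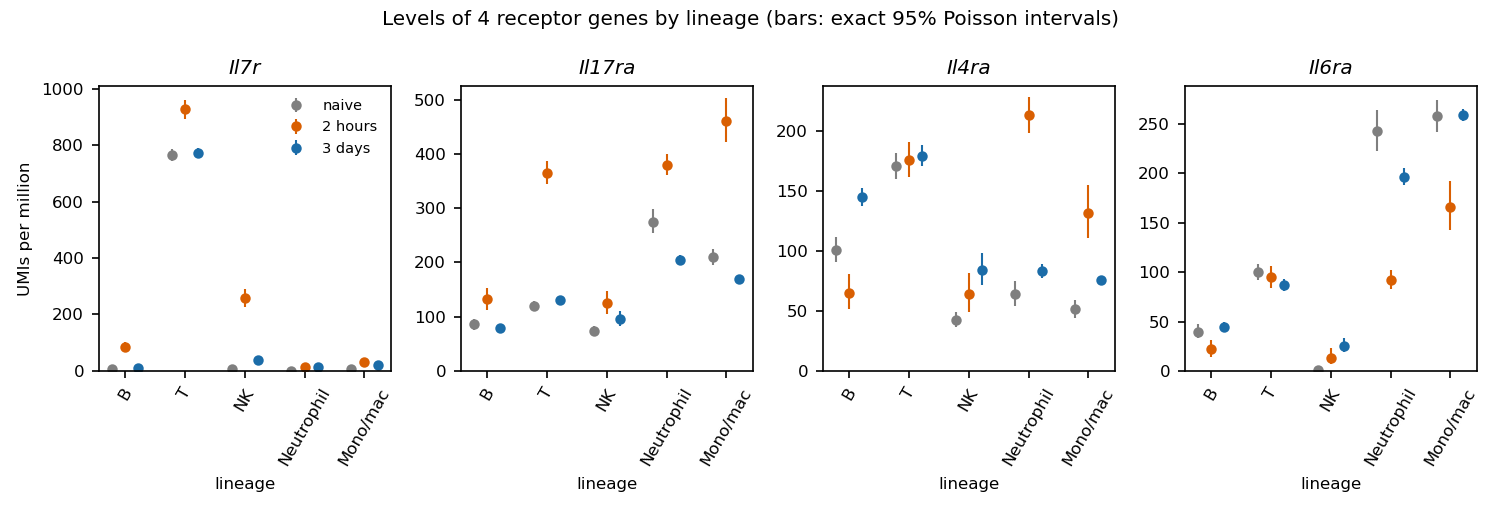
CPM by lineage and library for Il7r, Il17ra, Il4ra and Il6ra, with exact Poisson 95% intervals. Il17ra stood at 120, 365 and 130 CPM in T-like cells, and Il4ra at 63.7, 213 and 83.1 CPM in neutrophil-like cells, in the naive, 2-hour and 3-day libraries.

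Il17ra (ENSMUSG00000002897, chr6:120463247-120487559, plus strand, GRCm38) had, like Il7r and Il2rg, a 2-hour level above both other libraries in all 5 lineages. Its level in T-like cells was 120 CPM (112 to 130) naive, 365 (344 to 387) at 2 hours and 130 (123 to 138) at 3 days. In monocyte and macrophage-like cells it was 210, 461 and 169 CPM, and in neutrophil-like cells 275, 381 and 204 CPM. The NK-like cells had 73.6, 125 and 95.7 CPM, and the B-like cells 85.8, 132 and 78.2 CPM. The difference between 2 hours and 3 days was past 2-fold in T-like (log2 1.49, 1.37 to 1.61) and in monocyte and macrophage-like cells (1.45, 1.31 to 1.58), and under it in the other 3 lineages. In T-like cells the thinned share of cells with a UMI was 5.87%, 16.2% and 7.16%, against 64.1%, 32.7% and 58.8% before thinning. Within the T-like cells Il17ra at 2 hours was 386 CPM in Foxp3+, 386 in Cd4+, 333 in Cd8+ and 546 in Trdc+ cells, above the 57.4 to 141 CPM of these classes in the other libraries. In the nonclassical monocyte-like clusters alone the difference was under 2-fold: Il17ra was 284 CPM naive, 457 at 2 hours and 328 at 3 days there, and the log2 ratio was 0.48 (0.32 to 0.63). At 3 days Il17ra stood at 328 CPM in nonclassical monocyte-like, 181 in classical monocyte-like and 78.2 in macrophage-like cells. The sum of 8 neutrophil markers in the monocyte and macrophage-like cells was 542, 5055 and 1770 CPM, with 1 marker at 0 in the naive library; its part in the Il17ra values was not tested.

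Il4ra (ENSMUSG00000030748, chr7:125552120-125579474, plus strand, GRCm38) differed in opposite directions in 2 lineages. In neutrophil-like cells it was 63.7 CPM (53.7 to 75.0) naive, 213 (198 to 228) at 2 hours and 83.1 (77.6 to 88.8) at 3 days. In the same cells the sum of 7 epithelial markers was 25.4, 553 and 12.7 CPM (3, 2 and 1 at 0), that of 5 plasma cell markers 73.5, 257 and 113 CPM (3, 1 and 1 at 0), and that of 8 neutrophil markers 116316, 54562 and 156015 CPM (none at 0); their part in the Il4ra values was not tested. In B-like cells Il4ra was 101 CPM naive, 65.1 at 2 hours and 145 at 3 days. In T-like cells it was nearly level at 171, 176 and 179 CPM. As 2 hours over 3 days, its log2 ratio was 1.36 (1.22 to 1.495) in neutrophil-like cells and -1.15 (-1.49 to -0.83) in B-like cells. The neutrophil-like share of thinned cells with a UMI was 2.58%, 9.13% and 4.09%, against 24.3%, 14.3% and 26.1% before thinning. In B-like cells the difference fell just under 2-fold (log2 -0.99 with median-of-ratios size factors). In the nonclassical monocyte-like clusters alone Il4ra was 56.2, 132 and 57.4 CPM, with a log2 ratio of 1.2 (0.89 to 1.51) for 2 hours to 3 days. The other IL-4 and IL-13 receptor chain, Il13ra1, was 185, 117 and 228 CPM in neutrophil-like and 124, 83.8 and 102 CPM in monocyte and macrophage-like cells, and did not pass 2-fold there between 2 hours and 3 days. An exon of Gm44876 on the opposite strand overlaps Il4ra, and its reads cannot be told apart where strand was not used.

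Among the chains that pair with the common gamma chain, Il2rb, which NK cells and memory T cells use for IL-2 and IL-15, was 1343 CPM (1309 to 1378) naive, 953 (895 to 1015) at 2 hours and 1572 (1518 to 1629) at 3 days in NK-like cells. In T-like cells it was 221, 129 and 295 CPM, and its log2 ratio (2 hours over 3 days) was -1.20 (-1.35 to -1.05). The 2-hour level was the lowest of the 3 in both lineages. The sum of 8 NK cell markers was also lowest at 2 hours, at 14834 CPM naive, 8205 at 2 hours and 13454 at 3 days in NK-like cells (none at 0), against 333, 71.9 and 310 within the T-like lineage (2 of the 8 at 0 at 2 hours); its part in the Il2rb values, and in those of Il18rap and Il18r1 given below, was not tested. In neutrophil-like cells Il2rb was 7.12, 4.64 and 11.4 CPM and its ratio -1.30 (-2.10 to -0.58). Il2rg itself was 246, 344 and 254 CPM in NK-like, 240, 275 and 203 in B-like, and 197, 228 and 186 in T-like cells, highest at 2 hours in each. Il21r, the receptor for the T helper cytokine IL-21, was 232, 275 and 190 CPM in T-like and 185, 144 and 119 CPM in B-like cells. Neither Il2rg nor Il21r passed 2-fold between 2 hours and 3 days in a lineage where it was tested. Il2rg overlaps Gm20489 on its own strand. Il15ra, which presents IL-15, was 3.59, 1.28 and 4.58 CPM in T-like cells, with a ratio of -1.84 (-3.78 to -0.38) from 4 and 43 UMIs. Il9r, the IL-9 receptor, was 27.0, 9.41 and 12.96 CPM in B-like cells.

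Through the IL-12 and IL-18 receptors NK and T cells are driven to make interferon gamma. The IL-18 receptor chains were lower in these cells at 2 hours than at 3 days. For Il12rb2 the log2 ratio (2 hours over 3 days) was -0.30 (-0.58 to -0.03) in NK-like cells, near the median of all tested genes (-0.26). In T-like cells the Il12rb2 ratio was -0.68 (-1.29 to -0.12), where that median was -0.25. Il12rb1 in NK-like cells had 1 and 9 UMIs and was not tested. Il18rap, the accessory chain, was 884, 249 and 558 CPM in NK-like cells with a log2 ratio of 2 hours to 3 days of -1.16 (-1.36 to -0.97), and 74.8, 22.8 and 62.9 CPM in T-like cells with a ratio of -1.47 (-1.84 to -1.11). In neutrophil-like cells it was 333, 302 and 213 CPM, highest in the naive library and lowest at 3 days. Il18r1, the IL-18 binding chain, was 522, 191 and 267 CPM in NK-like and 175, 61.3 and 110 CPM in T-like cells, and was not past 2-fold between 2 hours and 3 days. Its naive level stands beside 30.5 kb of intron. Il12rb1, the chain shared by the IL-12 and IL-23 receptors, was counted with 15, 1 and 46 UMIs in T-like cells, a ratio of -3.93 (-9.27 to -1.38). Il27ra, the receptor for IL-27, was 80.1, 33.4 and 58.5 CPM in T-like cells, and in B-like cells it was 27.0, 5.49 and 18.8 CPM with a ratio of -1.78 (-3.11 to -0.71).

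Il18r1 and Il18rap were highest in the naive library in NK-like and T-like cells. Naive over 3 days in NK-like cells, their log2 ratios were 0.97 and 0.66. The naive level of Il12rb2 stood further apart. In NK-like cells it was 929 CPM (900 to 958) naive, 156 (133 to 182) at 2 hours and 192 (173 to 212) at 3 days, and in T-like cells 102, 9.95 and 16.0 CPM. The thinned share of NK-like cells with a UMI was 34.4% naive, 8.17% at 2 hours and 9.51% at 3 days, against 96.9%, 14.0% and 62.9% before thinning. Naive over 3 days, the log2 ratio of Il12rb2 was 2.28 in NK-like and 2.67 in T-like cells. It was 3.302 in neutrophil-like cells, from 17 and 8 UMIs, and 3.55 in monocyte and macrophage-like cells. Of the 171 naive UMIs of the latter, 116 lay in alveolar macrophage-like cells (58.45 CPM), which numbered 0 at 3 days. In the nonclassical monocyte-like clusters alone Il12rb2 was 30.3 CPM naive and 8.30 at 3 days, a ratio of 1.87 (1.235 to 2.52). Il12rb2 has 81.1 kb of intron, and ratios of naive to 3 days rose with intronic length in general, so the condition, the library and the counting of introns cannot be told apart for it. Serbp1 overlaps an exon of Il12rb2 on the opposite strand.

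**Figure D4:**
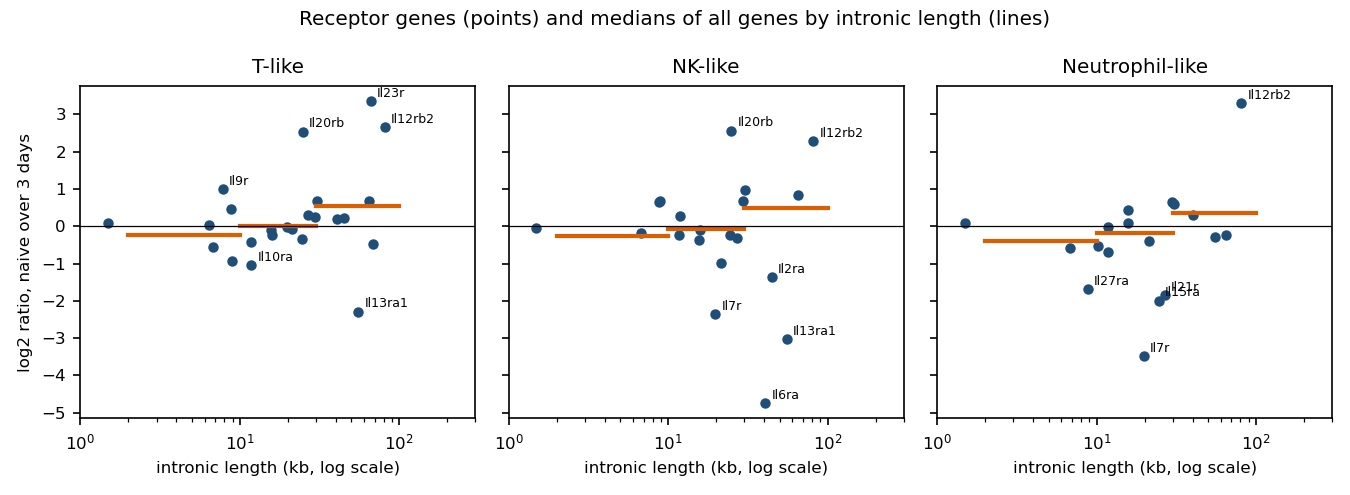
Log2 ratio of naive to 3 days against intronic length in kb (log axis) for each tested member (points) in neutrophil-like, T-like and NK-like cells, with lines at the median of all genes having up to 10, 10 to 30 and 30 to 100 kb of intron. Il12rb2 lies at 81.1 kb and Il2rg at 1.49 kb.

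Between naive and 3 days, 13 pairs were higher in the naive library and 13 at 3 days, of 102. In B-like cells 4 of 21 members were higher in the naive library (19.8% of genes) and 2 at 3 days (6.43%). In T-like cells these were 3 and 2 of 24 (19.1% and 5.96%), and in NK-like cells 2 and 4 of 20 (18.3% and 5.58%). In neutrophil-like cells they were 1 and 3 of 18 (14.3% and 11.0%), and in monocyte and macrophage-like cells 3 and 2 of 19 (20.6% and 6.56%). In the naive direction the members' share was below that of all genes in each lineage, and in the 3-day direction it was above it, on counts of 2 to 4 members. Il20rb, a chain of the IL-20 family receptors with 24.9 kb of intron, was higher in the naive library in 4 lineages, for example 12.0, 1.93 and 2.03 CPM in NK-like cells from 51, 2 and 4 UMIs. In monocyte and macrophage-like cells 42 of its 47 naive UMIs lay in alveolar macrophage-like cells, which numbered 0 at 3 days. Il23r, with 66.4 kb, was 19.7, 0.32 and 1.92 CPM in T-like cells, a ratio of 3.36 (2.63 to 4.16) for naive to 3 days. Il31ra, with 68.8 kb, was 18.7, 4.66 and 8.06 CPM in monocyte and macrophage-like cells, a ratio of 1.22. In the nonclassical monocyte-like clusters alone Il31ra was 34.7, 3.80 and 32.7 CPM. The ratio there was 0.08 (-0.37 to 0.52) for naive to 3 days, and -3.11 (-5.00 to -1.72) for 2 hours to 3 days.

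In the 3-day direction of the same comparison, several members were ones whose highest level was in another lineage. Il6ra in NK-like cells was 0.94, 13.5 and 25.3 CPM and Il13ra1 1.18, 2.90 and 9.62 CPM, from 4, 14 and 50 and from 5, 3 and 19 UMIs. Both genes are high in neutrophil-like or monocyte and macrophage-like cells, and the sum of 8 neutrophil markers in the NK-like cells was 370, 1868 and 4200 CPM. In B-like cells Il13ra1 was 1.15, 8.63 and 7.19 CPM beside neutrophil markers of 223, 2248 and 1114 CPM, with 1 marker at 0 at 2 hours. The part of these markers in the values was not tested. Il2rg in monocyte and macrophage-like cells was 50.2, 149 and 107 CPM, a ratio of -1.10 (-1.31 to -0.89) for naive to 3 days, and it was -1.002 in nonclassical monocyte-like clusters alone. The sum of 8 B cell markers in these cells was 61.1, 1049 and 138 CPM, with none at 0, beside the neutrophil markers of 542, 5055 and 1770 CPM; their part in the Il2rg values was not tested.

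Receptors of myeloid cells differed by subtype. Il6ra, which binds IL-6 and is shed in soluble form, was 258, 166 and 259 CPM in monocyte and macrophage-like and 243, 92.3 and 196 CPM in neutrophil-like cells, where its log2 ratio (2 hours over 3 days) was -1.09 (-1.26 to -0.93). It was also lower at 2 hours in B-like cells, at 39.9, 21.96 and 44.8 CPM and a ratio of -1.03 (-1.64 to -0.48), and nearly level in T-like cells at 99.9, 94.96 and 87.3 CPM. Il10ra, the private chain of the anti-inflammatory IL-10 receptor, was 151, 155 and 154 CPM in neutrophil-like cells and 148, 112 and 184 CPM in monocyte and macrophage-like cells. In B-like cells it was 110, 41.6 and 111 CPM, with a ratio of -1.42 (-1.84 to -1.02), and in T-like cells 15.03, 8.34 and 30.9 CPM, with a ratio of -1.89 (-2.53 to -1.31). In NK-like cells Il10ra was 81.85, 36.7 and 67.9 CPM, with a ratio of -0.89 (-1.445 to -0.36) that was not past 2-fold. Il10ra was therefore level in neutrophil-like cells and lower at 2 hours in B-like, T-like and NK-like cells. Its partner Il10rb was 275, 305 and 258 CPM in neutrophil-like and 108, 140 and 210 CPM in monocyte and macrophage-like cells. At 3 days Il10rb was 322 CPM in macrophage-like, 155 in classical and 137 in nonclassical monocyte-like cells, whereas Il6ra was 173, 282 and 374 CPM in the same order. In the nonclassical monocyte-like clusters alone Il10ra was 226, 113 and 322 CPM, a ratio of -1.51 (-1.80 to -1.24), and Il6ra had a ratio of -1.15 (-1.39 to -0.93), so both were past 2-fold there. Il10rb overlaps Gm21970 on its own strand.

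Il11ra1, the IL-11 receptor, and Il3ra, the IL-3 receptor alpha chain, were low. In monocyte and macrophage-like cells Il11ra1 was 17.9, 1.86 and 19.1 CPM, with 69, 2 and 512 UMIs and a ratio of -3.36 (-6.41 to -1.50) for 2 hours to 3 days. At 3 days it was 41.1 CPM in macrophage-like and 7.32 and 7.38 CPM in the monocyte-like subtypes, and in naive alveolar macrophage-like cells it was 28.7 CPM. Il11ra1 and Il11ra2 are near-identical copies, so reads between them are uncertain, and Ccl27a overlaps Il11ra1 on the opposite strand. Il3ra was 20.02, 4.66 and 21.5 CPM, with 77, 5 and 575 UMIs and a ratio of -2.20 (-3.83 to -0.97). In T-like cells Il3ra was 5.98, 3.21 and 8.74 CPM, with a ratio of -1.45 (-2.56 to -0.49). The 2-hour cells were mostly nonclassical monocyte-like, and in those clusters alone the Il3ra ratio was -2.03. With a coarser clustering (resolution 0.4) the Il3ra ratio in monocyte and macrophage-like cells turned to 1.17, with an interval of -4.14 to 3.65 that holds either direction.

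Il5ra, the IL-5 receptor alpha chain known from B-1 cells and eosinophils, was found mainly in B-like cells, at 64.5 CPM (56.4 to 73.5) naive, 7.84 (3.76 to 14.4) at 2 hours and 31.2 (27.9 to 34.8) at 3 days. The ratio of 2 hours to 3 days was -1.99 (-3.07 to -1.10), from 10 and 330 UMIs. Il2ra in B-like cells was 12.9, 5.49 and 4.07 CPM, a ratio of 1.67 (1.03 to 2.30) for naive to 3 days. Among the other IL-17 receptor chains, Il17re, which binds IL-17C, was 4.27, 1.28 and 4.16 CPM in T-like cells, a ratio of -1.70 (-3.64 to -0.22) for 2 hours to 3 days from 4 and 39 UMIs. Il17rb, the IL-25 receptor, had 8, 4 and 9 UMIs in T-like cells. Il22ra2, a soluble IL-22 binding protein, had 3, 2 and 20 UMIs in neutrophil-like cells. Exons of Il3ra, Il6ra, Il17rb and Il27ra overlap those of Gm48860, Gm42809, Actr8 and Palm3 on the opposite strand. Reads there cannot be told apart where strand was not used. Il31ra overlaps Gm3226 on its own strand, so its counts are uncertain to that extent.

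Several of the differences between 2 hours and 3 days did not pass 2-fold in every setting. With each cell called from its own marker UMIs the log2 ratio of Il18rap was -0.81 in NK-like and -0.62 in T-like cells, and that of Il2rb was -0.66 in T-like and -0.25 in neutrophil-like cells. With median-of-ratios size factors Il6ra was at -0.87 in both B-like and neutrophil-like cells and Il18rap in NK-like cells at -0.98. Without cells holding 2 or more UMIs of another lineage's markers Il18rap in NK-like cells was at -0.016. In the nonclassical monocyte-like clusters alone the interval of Il11ra1 reached 0 (ratio -1.96), as did those of Il12rb1 (-2.44) and Il15ra (-1.004) in T-like cells at clustering resolution 1.2. The Il17ra difference in T-like cells, that of Il4ra in neutrophil-like cells and that of Il7r in NK-like cells stayed past 2-fold wherever they could be computed.

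T-like cells were divided by UMIs of Foxp3, the regulatory T cell factor, of Trdc, the gamma delta T cell receptor constant gene, and of Cd8 or Cd4. Il2ra was 281 CPM in 18 naive Foxp3+ cells, 193 in 41 cells at 2 hours and 195 in 47 cells at 3 days, against 8.06, 23.7 and 11.5 CPM in Cd4+ cells. The log2 ratio of Foxp3+ to Cd4+ cells was 5.12 (4.24 to 6.10) naive and 4.08 (3.401 to 4.79) at 3 days. Il7r went the other way, with 505, 499 and 610 CPM in Foxp3+ and 763, 950 and 832 CPM in Cd4+ cells, as is known for regulatory T cells. Trdc+ cells, 39, 21 and 66 in number, had Il7r at 1128, 1056 and 1147 CPM. Il23r in the naive library was 200 CPM in Trdc+ cells, with 79 of the 115 UMIs of T-like cells, against 1.73 CPM in Cd4+ cells. At 3 days Il23r had 2 UMIs in Trdc+ cells, and at 2 hours it had 0 UMIs in 21 shallow cells, where its absence could not be told from low depth. Il17re in Trdc+ cells was 45.5 CPM naive and 47.6 at 3 days, with 0 UMIs in 477 Cd8+ cells at 3 days. Il18r1 was 402 CPM naive and 270 at 3 days in Trdc+ cells, against 149 and 112 CPM in Cd4+ cells. Il2rb was 259, 161 and 324 CPM in Cd8+ and 93.8, 89.1 and 151 CPM in Cd4+ cells. At 2 hours most T-like cells, 1901 of 2505, fell into none of these classes.

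**Figure D5:**
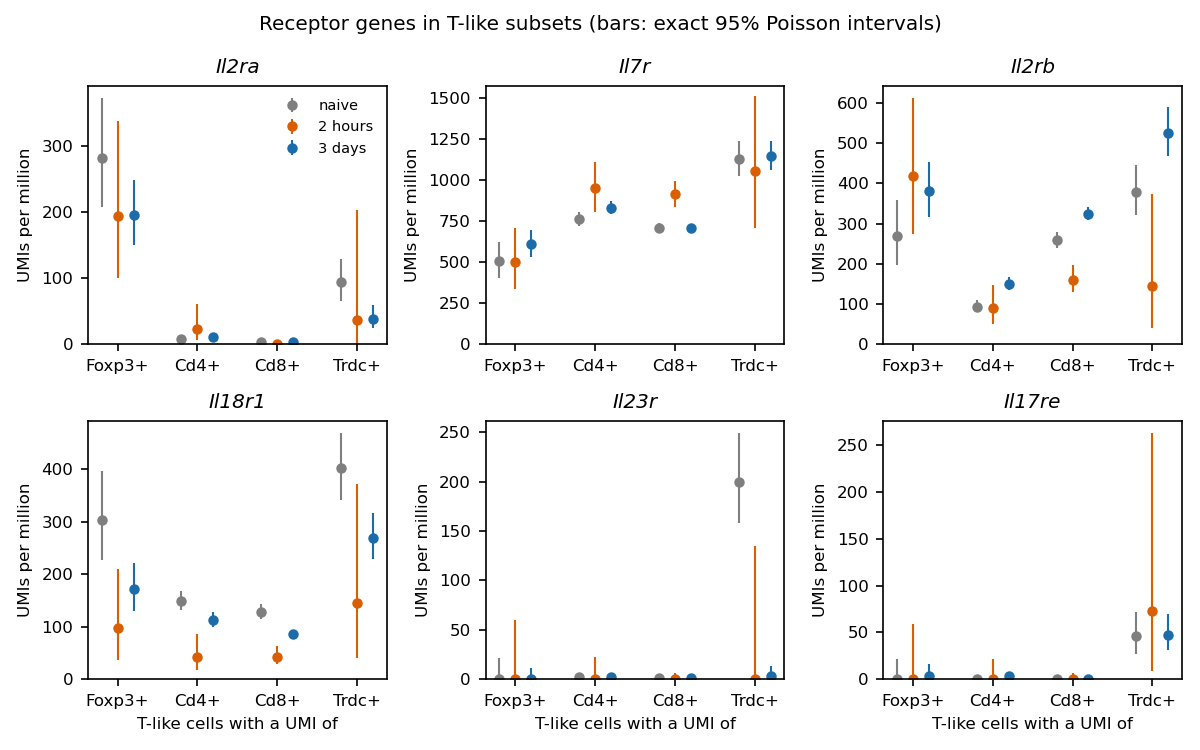
CPM of Il2ra, Il7r, Il2rb, Il18r1, Il23r and Il17re in T-like cells split by Foxp3, Trdc, Cd8 or Cd4 UMIs, by library, with exact Poisson 95% intervals. Il2ra in Foxp3+ cells stood at 281, 193 and 195 CPM, against 8.06, 23.7 and 11.5 CPM in Cd4+ cells.

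Outside the 5 lineages, the 68 basophil and mast-like cells at 2 hours and 112 at 3 days had Il7r at 583 and 525 CPM, Il18rap at 763 and 779 CPM and Il18r1 at 370 and 385 CPM. Il18rap and Il18r1 were above their NK-like and T-like levels at both times, and Il7r lay between its NK-like and T-like levels. The intervals of each gene overlapped between 2 hours and 3 days. The naive library held 20 such cells.

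The pathway around the receptors was described with fixed lists, between 2 hours and 3 days. Of 4 feedback inhibitors (the SOCS family and Cish), those past 2-fold were mostly higher at 2 hours: 2 of 3 tested in neutrophil-like (7.96% of all genes), 2 of 4 in NK-like (6.27%), 1 of 3 in B-like (6.69%), and 1 of 4 each in T-like (7.03%) and monocyte and macrophage-like cells (8.83%), with 1 higher at 3 days in T-like cells (14.4%). Socs3 in neutrophil-like cells was 746 CPM at 2 hours and 149 at 3 days, a log2 ratio of 2.32, and Cish was 47.4 and 7.0 CPM, a ratio of 2.76. Socs1 in T-like cells was 206 and 78.0 CPM, a ratio of 1.40. The counts that follow stand beside the same background, 6.27% to 8.83% of genes higher at 2 hours and 12.9% to 14.9% higher at 3 days. Of the 7 STAT genes none was past 2-fold except 1 in monocyte and macrophage-like cells, and of the 4 Janus kinases 2 in B-like and 1 each in T-like, NK-like and monocyte and macrophage-like cells were higher at 3 days, Tyk2 being one of them in each of these lineages. Of the 2 IL-17 receptor adaptors, 1 was higher at 2 hours in neutrophil-like and in monocyte and macrophage-like cells and 1 at 3 days in NK-like cells. Among 13 shared and related receptor chains, Ifngr2 in T-like cells was 268 and 76.0 CPM (log2 1.82), and Csf3r, the granulocyte colony-stimulating factor receptor, in neutrophil-like cells 843 and 2591 CPM (-1.62). Of 27 ligand genes, 5 of 8 tested in T-like cells (14.4% of all genes) and 3 of 10 in monocyte and macrophage-like cells (13.7%) were higher at 3 days. Those higher at 2 hours were Il12a in B-like (log2 1.11), neutrophil-like (1.38) and monocyte and macrophage-like cells (2.39), Il18 in neutrophil-like cells (19.6 and 9.79 CPM) and Il10 in B-like cells (8.63 and 3.22 CPM, log2 1.42). Il6 was 14.9 and 166 CPM (-3.48) and Il10 1.86 and 55.3 CPM (-4.89) in monocyte and macrophage-like cells, and Il5 in T-like cells had 0 UMIs at 2 hours and 393 at 3 days. The monocyte and macrophage-like cells were mainly nonclassical monocyte-like at 2 hours, and at 3 days also classical monocyte-like and macrophage-like. Their ligand ratios thus compare different mixtures of subtypes, and no ligand values within a subtype are given.

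The transplant libraries also held antibody counts for surface proteins, 277 features each, and the naive library had none. Antibodies to CD127, CD25, CD122, CD124, CD126 and CD218a had 0 or 1 UMI in every lineage. CD123 reached 188 CPM of all antibody UMIs in T-like cells at 2 hours, from 18 UMIs, below the median of the 9 isotype controls in those cells, 355 CPM. In the same libraries the CD3, CD4 and CD11b antibodies were also near 0 in lineages that carry those proteins, while CD45R reached 405281 CPM in B-like cells at 2 hours. These counts therefore give no reading of receptor protein.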

How the data were processed

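The deposited count matrices, made by the authors with Cell Ranger, hold whole UMI counts per gene or antibody and cell barcode. The labels' processing notes name Cell Ranger 6, Seurat 4 and mm10, and the file headers give 7.1.0 for the naive and 6.0.0 for the transplant libraries. The labels name both a 5′ and a 3′ kit, and which library used which is not settled here. Cells with over 200 and under 6000 genes, under 25000 UMIs and under 10% mitochondrial UMIs were kept. Clusters (Seurat 5.3.0, sctransform 0.4.2, 30 principal components, resolution 0.8), fitted without the members, were named from marker lists; doublets (Scrublet in scanpy 1.11.5) were kept in the main values and removed in an alternative. UMIs were summed per library and lineage and divided by that lineage's total. Log2 ratios carry exact conditional 95% intervals, and a pair was tested with at least 20 UMIs over both libraries. The scripts were tested on simulated data. The members, gene lists and tests were chosen with earlier results of these data known. A member was named in a lineage with at least 20 UMIs over the libraries, with values of all 3 libraries for those past 2-fold between 2 hours and 3 days and the 6 with the highest CPM in a lineage. Gene positions are from GRCm38. Protein sequences were not used here.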

Additional observations from a re-analysis of the deposited data

Results flagged for a closer look

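Il4ra was flagged because its ratio of 2 hours to 3 days was past 2-fold in opposite directions in 2 lineages, with a log2 ratio of 1.36 in neutrophil-like cells and -1.15 in B-like cells. Il2ra was flagged in the same way for naive to 3 days, with 1.67 in B-like cells (45 and 43 UMIs) and -1.37 in NK-like cells (10 and 12 UMIs). Il2ra has 44.7 kb of intron, and the median of genes with 30 to 100 kb was 0.62 in B-like and 0.49 in NK-like cells. Each direction rests on 1 library per condition, and the difference between the lineages was not tested.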

How the results depend on the processing

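The 2-hour library was shallow, with 1 library per condition, so a library could not be left out in turn and counting error is the only error measured. No paired analysis was possible because each condition had a single library. Of the 48 pairs past 2-fold in the 2 comparisons, 39 to 48 stayed past it with members kept in the clustering, other resolutions, doublets removed, other scalings, other UMI minimums or, in alternatives chosen after seeing the data, without the heat-shock clusters, with nonclassical monocyte-like clusters alone or without cells with a Cd3 UMI. Fewer stayed, 30 and 29, with each cell called from its own markers, with and without the cell filter, and 19 with thinning, where 26 could not be computed. Without cells holding 2 or more UMIs of another lineage's markers 7 stayed and 34 could not be computed. The 17 pairs higher at 3 days than at 2 hours became 10 with cells called singly, with or without the cell filter, 8 without cells of mixed markers and 26 as a mean over cells; the 5 higher at 2 hours became 8 without cells of mixed markers. The 13 higher in naive than at 3 days became 3 without cells of mixed markers and 5 after thinning, and the 13 higher at 3 days became 7 with cells called singly, 1 without cells of mixed markers and 3 after thinning. The 11 members with a constant highest lineage became 5 of 11 counted without cells of mixed markers. The ratios that turned were Il3ra in monocyte and macrophage-like cells for 2 hours to 3 days (1.17 at resolution 0.4, interval -4.14 to 3.65), Il5ra in B-like cells for naive to 3 days (-0.076 without cells of mixed markers) and Il7r in monocyte and macrophage-like cells for naive to 3 days (1.32 in nonclassical monocyte-like clusters alone). The removal of mixed-marker cells and thinning left fewer UMIs by construction; for the other changes the cause was not tested.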

Other observations

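Cells outside the named lineages also carried these receptors. Cluster 21, which stayed unnamed and was led by Tnf, Ccl3, Ccrl2, Il1f9, Il23a and Siglecf, had 260 cells at 3 days. In it Il10rb stood at 375 CPM, Il10ra at 255, Il6ra at 223, Il18rap at 166 and Il4ra at 134. By the marker lists its closest type was the neutrophil, but it was not counted among the neutrophil-like cells, where Il4ra was 83.1 CPM at 3 days. Cluster 22, also unnamed and holding dendritic cell markers, had 23, 66 and 113 cells in the naive, 2-hour and 3-day libraries and Il7r at 68.8, 147 and 232 CPM. At 3 days Il7r was 44.0 CPM in macrophage-like cells, 74.3 in their cluster 25 with complement C1q genes, and 5.30 in nonclassical monocyte-like cells.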
